A study of Mus musculus with 6 samples.

Results

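The genes described here are the protein components of caveolae and of the lipid rafts around them: the caveolins Cav1 and Cav2, the cavins Cavin1, Cavin2 and Cavin3, the caveolar neck ATPase Ehd2, the flotillins Flot1 and Flot2, and the raft adaptor Pag1. They are 9 of the 45706 genes in the count table. The group was chosen by the counts of Pag1, which were much lower in RBMS1 knockdown cells, so Pag1's own difference between the groups is given as a description without a test, and the other 8 genes are compared. All 9 passed the filter on low counts that left 11440 genes for testing. Cavin1, Cavin2 and Cavin3 stand in the table under their older symbols Ptrf, Sdpr and Prkcdbp, and were matched by Ensembl identifier.

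The study knocked down RBMS1, an RNA-binding protein, in 3T3-L1 cells, a mouse embryo fibroblast line that turns into fat-storing cells when given adipogenic hormones. There were 3 samples with a scrambled control (genotype WT in the labels) and 3 with RBMS1 knockdown (genotype RBMS1KD). Both groups carried a lentiviral short hairpin RNA under puromycin selection, received the same cocktail of IBMX, insulin, dexamethasone and rosiglitazone, and were harvested on day 7. The sources do not say whether the 3 samples of a group came from separate transductions, or how many hairpins were used, so p-values measure the spread between these cultures only. RNA was measured in bulk, so fewer cells of a type and less RNA per cell cannot be told apart. Total counts ran from 3142695 in control replicate 2 to 11073098 in knockdown replicate 3. Control replicate 2 stood apart, with 43% of its counts on ribosomal RNA genes against 8.12% to 17.8% in the other 5 samples.

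Caveolae are small flask-shaped pits of the plasma membrane and are especially dense in adipocytes. Caveolins insert into the inner leaflet as a hairpin, and CAV1 is required to form the pit in non-muscle cells. Cavins coat the pit from the cytosol, with CAVIN1 as the obligate subunit, and EHD2 is an ATPase at the neck that keeps caveolae at the surface. Flotillins form separate raft scaffolds, and PAG1 is a palmitoylated transmembrane adaptor of rafts that recruits CSK, the kinase that switches Src-family kinases off.

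The start regions of the genes that build the caveolar coat are printed here because they belong to the most abundant caveolin, its partner and the obligate cavin, whose levels and ratios are given with the results. RefSeq promoter windows (GRCm38.p6, 250 bases before to 50 after a transcript start) were found for 6 of the 9 genes, in 8 windows, and not for Pag1, Cavin3 or Flot1. Capitals mark 3 motifs searched on both strands, the GC box (GGGCGG), the CCAAT box (CCAAT) and the TATA box (TATAAA). They are Cav2 at chr6:17280935-17281234 on the plus strand, Cav1 at chr6:17306085-17306384 on the plus strand, and Cavin1 at chr11:100970568-100970867 on the minus strand, each read 5′ to 3′ along its gene.
Cav2: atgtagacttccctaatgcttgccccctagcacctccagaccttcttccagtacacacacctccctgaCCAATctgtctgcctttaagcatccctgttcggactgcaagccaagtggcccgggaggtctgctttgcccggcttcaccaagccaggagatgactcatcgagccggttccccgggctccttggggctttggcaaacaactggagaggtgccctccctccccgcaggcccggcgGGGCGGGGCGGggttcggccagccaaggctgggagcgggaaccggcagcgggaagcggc
Cav1: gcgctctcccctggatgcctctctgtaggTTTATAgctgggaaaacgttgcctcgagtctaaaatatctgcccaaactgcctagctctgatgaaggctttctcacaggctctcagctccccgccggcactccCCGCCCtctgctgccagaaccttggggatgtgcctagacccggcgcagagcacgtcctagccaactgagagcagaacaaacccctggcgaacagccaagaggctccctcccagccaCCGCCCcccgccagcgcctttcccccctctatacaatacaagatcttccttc
Cavin1: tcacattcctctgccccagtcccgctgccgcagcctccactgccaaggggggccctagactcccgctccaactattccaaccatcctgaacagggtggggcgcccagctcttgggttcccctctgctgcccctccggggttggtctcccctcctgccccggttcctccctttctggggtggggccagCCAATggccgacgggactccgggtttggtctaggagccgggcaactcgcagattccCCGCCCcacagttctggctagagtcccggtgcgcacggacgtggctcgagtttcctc
Cav2 and Cav1 lie side by side on chromosome 6, with these starts 25.1 kb apart. Cav1's window had 2 GC boxes and a TATA box and no CCAAT box, while Cav2's had 2 GC boxes that overlap by 1 base and a CCAAT box. Of the 8 windows, 6 held a GC box, against 35.7% of 32851 promoter windows, and 6 held a CCAAT box, against 37.4%. A TATA box was found in 1, against 13.6%. By gene, Cavin2 had no GC box and Cav1 no CCAAT box, and a second Cav1 window held none of the 3 motifs. The windows of the 2 Cavin1 starts overlap almost wholly. The GC content was 59.3% for Cav1, 64.3% for Cav2, 66.7% for Cavin1 and 43.3% for Cavin2, against a median of 52.7% over all windows. A match describes the letters and is not evidence that a factor binds.

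Rbms1, the targeted gene (chr2:60750193-60963192, minus strand), was read first as a check of the labels. Its level in CPM (counts per 1000000, with library sizes scaled by the TMM method) was 113, 102 and 99.6 in the control samples and 49.2, 61.4 and 84 in the knockdown samples. Every knockdown sample was below every control sample, with a log2 fold change of -0.69 ± 0.20 (SE, n = 3 per group) that did not pass the threshold (edgeR adjusted p = 0.185). Leaving out 1 sample at a time gave -0.92 to -0.52, and Rbms1 was called only without knockdown replicate 3 (edgeR adjusted p = 0.0708). With library sizes alone, which raised the median of all genes by 0.37, it was -0.31 (edgeR adjusted p = 0.572). Throughout, a gene is called at an adjusted p of 0.1 or less, and differences are knockdown relative to control.

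Across the 8 genes other than Pag1, none was called as changed by edgeR's quasi-likelihood test or by DESeq2. Over all genes tested, edgeR called 1.22% in either direction (0.909% lower and 0.315% higher) and DESeq2 3.20%. At an unadjusted p under 0.05, 1 of the 8 passed (Cavin3), where 12.4% of all genes did. The 8 log2 fold changes ran from -0.46 for Cavin3 to 0.37 for Cav2, 4 below and 4 above 0, with a median of -0.037 beside 0.0044 for all tested genes. The knockdown and control samples did not overlap for 2 of the 8 (Cavin1 and Cavin3, 25%), against 18.5% of all tested genes. Leaving out control replicate 2, a comparison chosen after the values were seen, brought in Ehd2 as the third, against 25.9% of all genes.

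**Figure D1:**
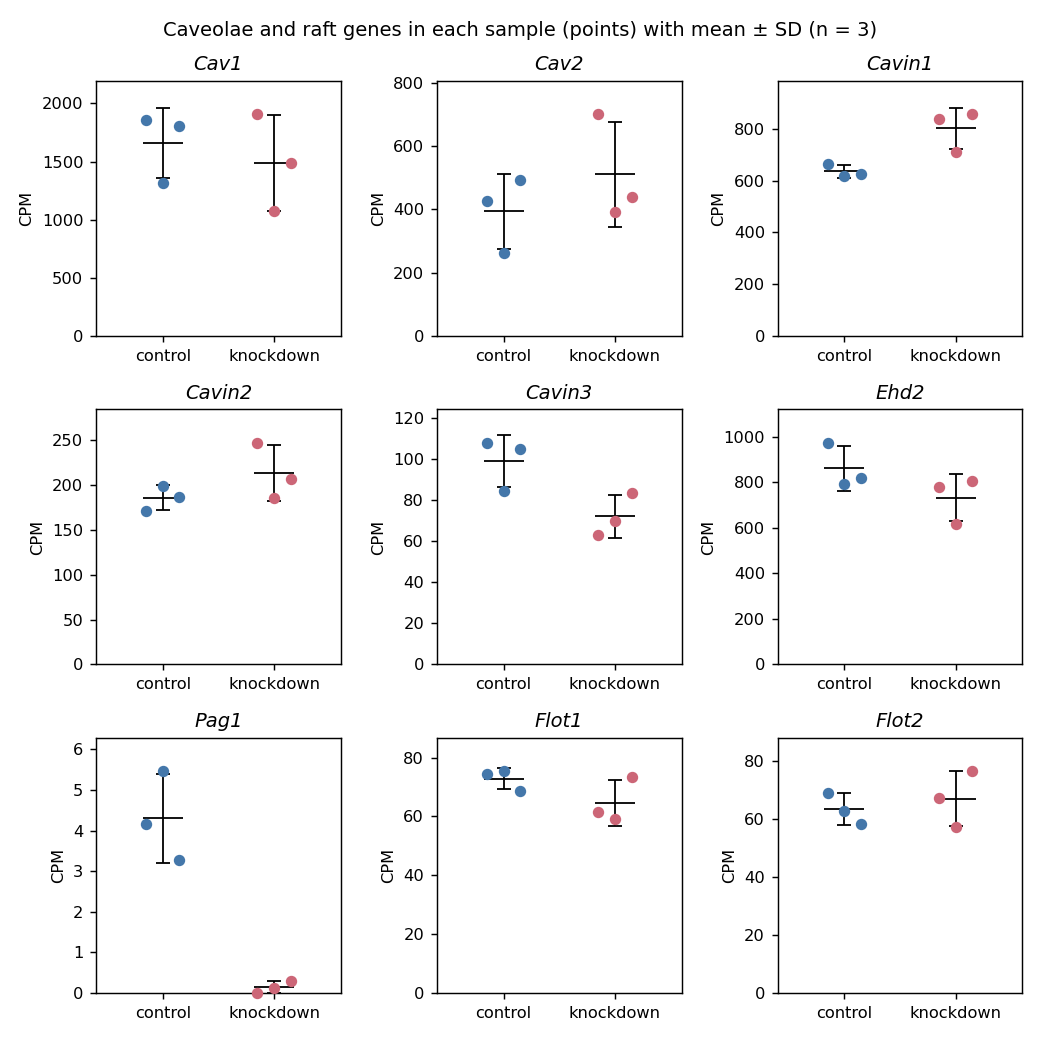
Level of each of the 9 genes in CPM (counts scaled to library size, linear axis from 0), with 1 point per sample, the horizontal line at the group mean and bars of ±1 SD (n = 3 control and 3 knockdown samples). Pag1 is separated between the groups, near 0 in the knockdown samples; Cavin1 is higher and Cavin3 lower in all 3 knockdown samples, and the other 6 genes overlap.

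Cav1, the core caveolin (ENSMUSG00000007655, chr6:17306335-17341452, plus strand), was the most abundant of the 9 genes. It measured 1858, 1314 and 1805 CPM in the control samples and 1907, 1079 and 1485 CPM in the knockdown samples. The groups overlapped, and the highest and the lowest of the 6 values were both knockdown samples. The means of 1659 ± 300 and 1491 ± 414 CPM (SD, n = 3) gave a log2 fold change of -0.15 ± 0.26 (SE), with a 95% interval of -0.75 to 0.44 (edgeR adjusted p = 0.86). That interval holds both falls and rises, so no direction could be given for Cav1 at this spread.

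Cav2, which is built into caveolae together with CAV1 (ENSMUSG00000000058, chr6:17281185-17289115, plus strand), measured 426, 262 and 494 CPM in controls and 701, 392 and 440 CPM after knockdown. Knockdown replicate 1 was the highest sample and control replicate 2 the lowest, and the other samples were mixed. The log2 fold change was 0.37 ± 0.28, with a 95% interval of -0.26 to 1.01 (edgeR adjusted p = 0.645). It was 0.086 without knockdown replicate 1 and 0.15 without control replicate 2, so much of its size came from those samples.

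Among the cavins, Cavin1 was the gene with higher values in all 3 knockdown samples. Cavin1, the obligate coat subunit (ENSMUSG00000004044, chr11:100956733-100970887, minus strand), measured 663, 616 and 627 CPM in controls and 839, 711 and 856 CPM after knockdown. The controls lay close together, at 636 ± 24.7 CPM, and the knockdown samples at 802 ± 79.6 CPM. The log2 fold change of 0.34 ± 0.17 had a 95% interval of -0.042 to 0.71 and did not pass the threshold (edgeR adjusted p = 0.46, DESeq2 adjusted p = 0.366). Of all tested genes, 8.96% had every knockdown sample above every control sample.

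Cavin3, a coat subunit best known as a partner of protein kinase C delta (ENSMUSG00000037060, chr7:105480083-105482300, minus strand), went the other way. It measured 108, 84.4 and 105 CPM in controls and 63, 69.9 and 83.6 CPM after knockdown. The groups were separate by a narrow margin, 84.4 CPM in control replicate 2 against 83.6 CPM in knockdown replicate 3. The log2 fold change of -0.46 ± 0.17, with a 95% interval of -0.84 to -0.08, was the lowest of the 8 and was not called (edgeR adjusted p = 0.302, DESeq2 adjusted p = 0.374). Every knockdown sample lay below every control sample for 9.55% of all tested genes. Cavin2, the subunit that shapes caveolar membrane (ENSMUSG00000045954, chr1:51289126-51302960, plus strand), measured 171, 199 and 187 CPM in controls and 247, 185 and 207 CPM after knockdown. Those groups overlapped, and the log2 fold change was 0.20 ± 0.16 (edgeR adjusted p = 0.664), or 0.089 without knockdown replicate 1.

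Ehd2 (ENSMUSG00000074364, chr7:15946958-15967567, minus strand) was the third most abundant of the 9 per unit of transcript length in controls. Its level was 973, 793 and 817 CPM in controls and 778, 616 and 804 CPM after knockdown. Knockdown replicate 3 lay between the 3 controls, and the other knockdown samples lay below them. The log2 fold change was -0.23 ± 0.19, with a 95% interval of -0.66 to 0.19 (edgeR adjusted p = 0.673). Leaving out 1 sample gave -0.30 to -0.11, nearest 0 without knockdown replicate 2.

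The flotillins overlapped between the groups. Flot1 (ENSMUSG00000059714, chr17:35823230-35832791, plus strand) measured 74.4, 75.4 and 68.8 CPM in controls and 61.4, 59 and 73.4 CPM after knockdown, a log2 fold change of -0.17 ± 0.15 (edgeR adjusted p = 0.696). Flot2 (ENSMUSG00000061981, chr11:78037931-78060434, plus strand) measured 69.2, 63 and 58.3 CPM in controls and 67.4, 57.4 and 76.6 CPM after knockdown, a log2 fold change of 0.08 ± 0.16 (edgeR adjusted p = 0.886). The 95% intervals, -0.51 to 0.16 for Flot1 and -0.28 to 0.44 for Flot2, were among the narrowest of the 8. They left out a doubling or a halving of either gene, as did the intervals of the rest of the 8 except Cav2. Leaving out 1 sample gave -0.27 (without knockdown replicate 3) to -0.097 (without knockdown replicate 2) for Flot1, and -0.021 to 0.20 for Flot2, the same samples setting both ends.

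**Figure D2:**
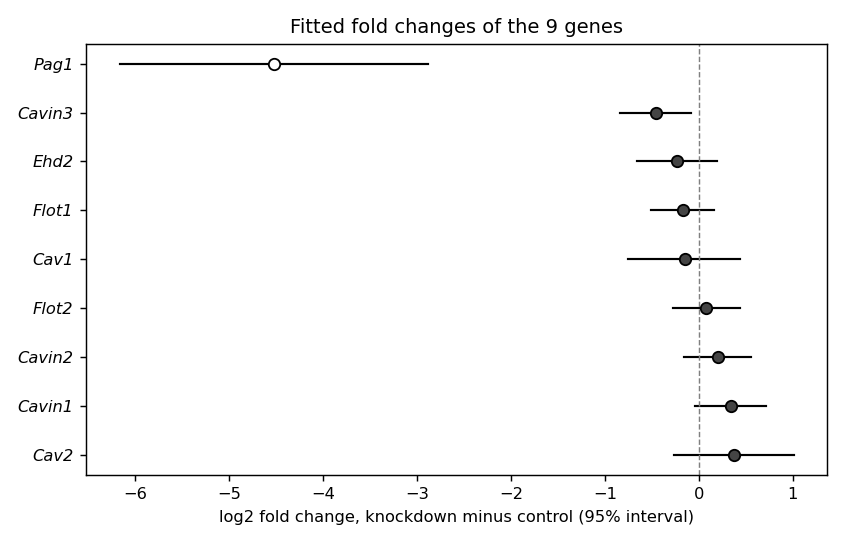
Fitted log2 fold change of knockdown relative to control for each of the 9 genes (points, edgeR) with 95% intervals (bars); the dashed line marks no difference. Pag1 (open point, the gene for which the group was chosen) is at -4.52, and the other 8 lie between -0.46 and 0.37, with the interval of Cavin3 alone of these not reaching 0.

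Pag1 (ENSMUSG00000027508, chr3:9687479-9833679, minus strand) was counted 26, 11 and 19 times in the control samples and 0, 1 and 4 times in the knockdown samples. In CPM that was 4.17, 5.46 and 3.27 in controls and 0, 0.117 and 0.294 after knockdown. All 3 knockdown samples were far below the lowest control, and knockdown replicate 3, the deepest library, held 4 of the 5 reads. Summed over the groups and scaled by library size, 56 against 5 counts is 23.2-fold lower in the knockdown, with an exact binomial 95% interval of 9.37-fold to 74.2-fold that covers counting error only. The fitted log2 fold change was -4.52 ± 0.74 (SE) and is given without a p because the gene was chosen for it. It was -5.62 without knockdown replicate 3. A count of 0 in knockdown replicate 1 allows a level of up to 0.431 CPM (3 counts), which is still below every control.

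Pag1 was also the rarest of the 9. In controls its mean was 4.3 ± 1.1 CPM, and 13.1% of tested genes had a lower control mean. It passed the filter on low counts through its control counts, and the size of a fold change at such counts rests on few reads. Divided by the summed exon length, Cav1 was at 482 ± 87.2 CPM per kb in controls and Pag1 at 0.449 ± 0.115, a 1074-fold gap between their means.

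Ordered by control level per kb, Cav1 was followed by Cavin1 (177 ± 6.88 CPM per kb), Ehd2 (168 ± 19.1), Cav2 (118 ± 35.8), Cavin2 (60.8 ± 4.53), Cavin3 (59.6 ± 7.72), Flot1 (25.2 ± 1.23) and Flot2 (23.2 ± 2). Neighbours in that order whose samples overlapped were Cavin1 with Ehd2, Cavin2 with Cavin3, and Flot1 with Flot2. In knockdown samples the levels per kb ran Cav1 (433 ± 120), Cavin1 (224 ± 22.2), Cav2 (153 ± 49.8), Ehd2 (143 ± 19.9), Cavin2 (69.8 ± 10.2), Cavin3 (43.4 ± 6.32), Flot2 (24.5 ± 3.51) and Flot1 (22.3 ± 2.67). Cavin2 and Cavin3, level in controls, no longer overlapped there. Cavin1 with Cav2, Cav2 with Ehd2, and Flot2 with Flot1 overlapped.

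Ratios between members within a sample do not depend on how libraries are scaled. The 6 ratios of counts per kb given here were picked after the values were seen and carry no test, and an exact permutation test of 3 against 3 samples could not go below 0.1. The Cav2 to Cav1 ratio was 0.237, 0.206 and 0.283 in controls and 0.38, 0.375 and 0.306 after knockdown, 1.46 times higher on average with no overlap. For Cavin3 to Cavin1 it was 0.35, 0.295 and 0.362 in controls and 0.162, 0.212 and 0.211 after knockdown, 0.58 times the control mean, also with no overlap. Flot2 to Flot1 was 0.983, 0.882 and 0.895 in controls and 1.16, 1.03 and 1.1 after knockdown, 1.19 times higher without overlap. The other 3 ratios overlapped, Cavin1 to Cav1 at 1.43 times, Cavin2 to Cavin1 at 0.907 times and Ehd2 to Cav1 at 0.963 times the control mean. Without control replicate 2, Cavin1 to Cav1 was also separate, making 4 of 6. No share over ratios of other genes was computed, so these counts describe the 6 pairs alone.

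**Figure D3:**
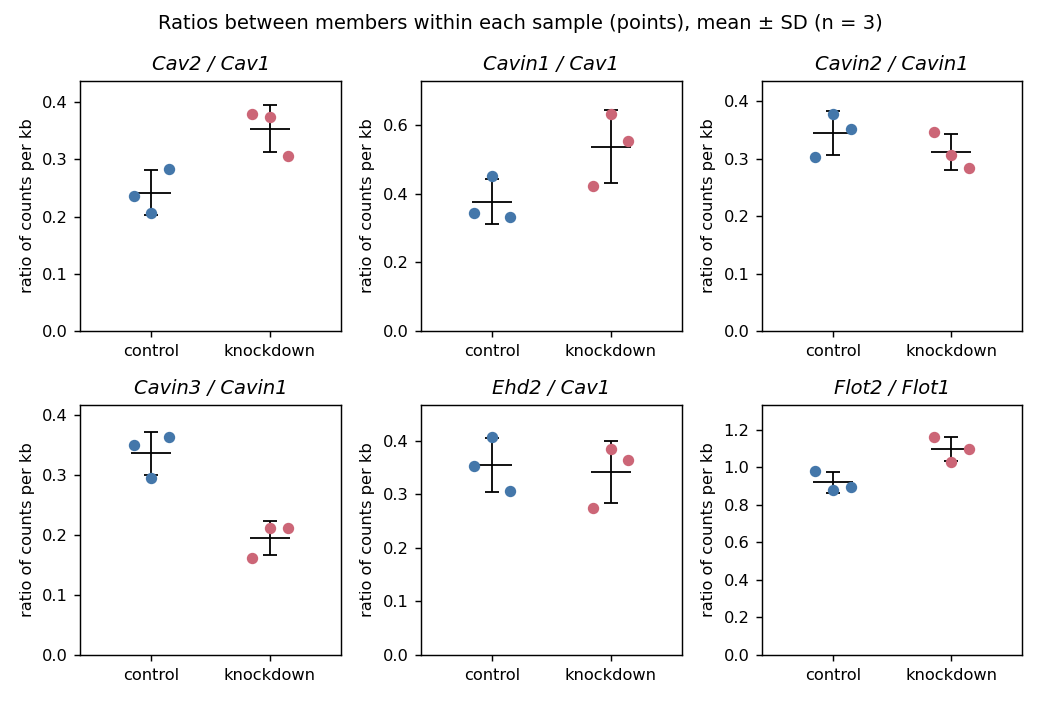
Ratio of counts per kb between pairs of the 9 genes within each sample (points, linear axes from 0), with the group mean and ±1 SD (n = 3 per group). Cav2 to Cav1 and Flot2 to Flot1 are higher and Cavin3 to Cavin1 is lower in all 3 knockdown samples; the other 3 ratios overlap.

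Sharing of reads with other genes was looked for in the counts. All 54 counts of the 9 genes lay within 0.001 of a whole number, so none was divided in a visible fraction with another gene. Of the annotated genes that overlap a member and stand in the table, Gm15581, antisense to Cav1 and Cav2, had 2 reads over all 6 samples, 9330175M20Rik, antisense to Cavin2, had 1, and Gm16337 and Gm24786 at Pag1 had 0.

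The genes around Pag1 on chromosome 3 are given as a description. Pag1 was chosen for its large difference, so a smaller one in its neighbours says nothing further. Of 9 tested genes within 2 Mb, 7 were below and 2 above 0, with a median log2 fold change of -0.26. None was called by edgeR or DESeq2 or had an unadjusted p under 0.05 in edgeR. They ran from -1.22 for Hey1, a Notch-responsive repressor, to 0.11 for Zbtb10, and the smallest edgeR adjusted p was 0.444. Fabp4 and Fabp5, fatty acid chaperones of adipocytes and the nearest tested genes on that side, were at -0.46 and -0.17. Mrps28 was at -0.55, Tpd52 at -0.26, Impa1 at -0.39 (the only neighbour with separate groups), Zfand1 at -0.19 and Snx16 at 0.066. More widely, the 91 tested genes in the first 50 Mb of chromosome 3, a boundary picked after the values were seen, Pag1 among them, had a median of -0.64, with 13 called lower (14.3%). The rest of that chromosome had a median of -0.083 with 9 of 493 called lower, and 0.909% of all tested genes were called lower. The part of that stretch in Pag1's value was not tested. With the median of this stretch removed from each sample before fitting (chromosome 3 was parted at 50 Mb for this), Pag1 was at -3.92.

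**Figure D4:**
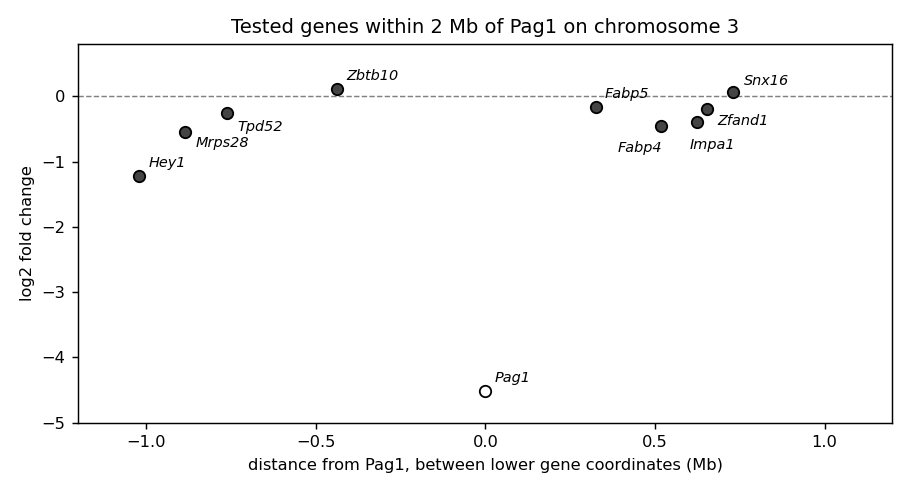
Log2 fold change (knockdown relative to control, edgeR) of the 9 tested genes within 2 Mb of Pag1, against distance from Pag1 in Mb; the open point is Pag1. The neighbours lie between -1.22 and 0.11, and Pag1, the gene for which the group was chosen, is at -4.52.

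The genes whose pattern over the 6 samples was most like that of Pag1 were Casc4, Rspo2 and Ndrg2, with root mean square differences in centred log2 CPM of 0.32, 0.39 and 0.40, against a median of 1.81 over all tested genes. They too were low-count genes, Casc4 with 19, 7 and 14 counts in controls and 0, 1 and 6 after knockdown. Those closest to Cav1 were Pcx, the pyruvate carboxylase gene, Rhbdf2 and Abhd15, at 0.05, 0.065 and 0.074 against a median of 0.41. Pcx measured 2525, 1983 and 2520 CPM in controls and 2796, 1507 and 2139 CPM after knockdown, so it shared with Cav1 the low values in control replicate 2 and knockdown replicate 2. This likeness is a description over 6 samples of shared libraries. Since Pag1 was chosen for its fall, the genes closest to it had to be ones that also fell. The median of 1.81 therefore does not measure how unusual their closeness is.

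Beyond the 9 genes, 7 lists of related genes held 126 genes, of which 89 were tested. A single gene was called by edgeR (1.12%, against 1.22% of all genes), 7 of the 101 with a DESeq2 adjusted p were called by DESeq2 (6.93%, against 3.20%), 16 had an unadjusted p under 0.05 (18%, against 12.4%), and 18 did not overlap between groups (20.2%, against 18.5%). Their median log2 fold change was 0.10 beside 0.0044 for all tested genes. For each list, counts at an unadjusted p under 0.05 are to be read against that 12.4%, and edgeR and DESeq2 calls against 1.22% and 3.20%. Leaving out 1 sample turned the sign of the median of 4 lists, which ranged from -0.14 to 0.18 for caveola assembly, from -0.089 to 0.15 for raft scaffolds, from -0.002 to 0.11 for the CAP, Cbl and TC10 genes and from -0.014 to 0.45 for GPI-anchored proteins. Of these, 3 were below 0 without knockdown replicate 3 (caveola assembly, raft scaffolds and GPI-anchored proteins). With 1 sample left out, the median ranged from 0.01 to 0.27 for the adaptors and partners of PAG1. For the sphingolipid genes it ranged from 0.13 to 0.26.

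Other genes of the pit's machinery lay on both sides of 0. Of 13 tested caveola assembly genes, which include dynamins and pacsins, 6 were below and 7 above 0, with a median of 0.0082 and none called by edgeR or DESeq2. None had an unadjusted p under 0.05 in edgeR. The smallest p-values belonged to Dnm2, the dynamin that cuts vesicles free, with all knockdown samples above all controls (0.28 ± 0.14, edgeR adjusted p = 0.472), and Ror1, a receptor that binds caveolar proteins (-0.82 ± 0.50, edgeR adjusted p = 0.553). Ror1 was at -0.41 without knockdown replicate 1 and at -1.26 without knockdown replicate 3. Cav3, the muscle caveolin, had 0 counts in all samples, and Cavin4, the muscle cavin, 4 counts over the controls and 20 over the knockdown samples, too few to test. Of 13 raft scaffold genes of the stomatin, prohibitin, erlin and MAL families, 6 were below and 7 above 0 with a median of 0.067, none called and 1 at an unadjusted p under 0.05 (12.4% of all genes), and Stom, the stomatin gene, was at -0.41 ± 0.17 (edgeR adjusted p = 0.377) and Plp2 at 0.37 ± 0.18 (edgeR adjusted p = 0.459). Stom was called without knockdown replicate 1 (-0.59, edgeR adjusted p = 0.059), where 5.94% of all genes were, and not without any 1 of the other 5 samples (edgeR adjusted p from 0.468 to 0.665).

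Partners of PAG1 were measured beside its Src-family targets. Of 9 tested transmembrane adaptors and partners, 4 were below and 5 above 0, with a median of 0.089, none called by edgeR and 1 at an unadjusted p under 0.05 (12.4% of all genes). Msn, the moesin that ties membrane to actin, was at 203 ± 12.1 CPM in controls and 301 ± 61.8 CPM after knockdown and was called higher by DESeq2 and not by edgeR (DESeq2 adjusted p = 0.0975, edgeR adjusted p = 0.223). Without knockdown replicate 1 it was called by edgeR as well (adjusted p = 0.0361), and without any 1 of the other 5 samples it was not (edgeR adjusted p from 0.36 to 0.503). Ptpn11, the phosphatase SHP2, was at 0.20 ± 0.14 (edgeR adjusted p = 0.608). Of 9 Src-family kinase genes, the 5 others, which are mostly blood-cell members, had at most 2 counts in all and 4 could be tested. All 4 were above 0, with a median of 0.65, where 50.4% of all tested genes were above 0. None was called by edgeR or DESeq2, and 3 had an unadjusted p under 0.05, against 12.4% of all genes.

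Fyn, a kinase that phosphorylates PAG1, measured 8.01, 7.94 and 6.37 CPM in controls and 11.4, 15.9 and 12.9 CPM after knockdown. All knockdown samples were above all controls (log2 fold change 0.85 ± 0.24, edgeR adjusted p = 0.178). Frk measured 5.13, 2.98 and 7.05 CPM in controls and 6.18, 10.5 and 13.9 CPM after knockdown, with overlap (0.96 ± 0.38, edgeR adjusted p = 0.344). Yes1 and Src, named after their values were seen, completed the set. Yes1 measured 26.9, 25.8 and 31.1 CPM against 41.7, 41.7 and 31.3 CPM (0.45 ± 0.18, edgeR adjusted p = 0.352), and Src 30.8, 23.8 and 24.1 CPM against 26.9, 32 and 48.7 CPM (0.45 ± 0.24, edgeR adjusted p = 0.49). Yes1 was separate by a margin of 31.1 to 31.3 CPM and Src overlapped. Src was at 0.17 on the log2 scale without knockdown replicate 3. Without knockdown replicate 1, where 5.94% of all genes were called, Fyn (0.96, edgeR adjusted p = 0.0907) and Frk (1.23, edgeR adjusted p = 0.0994) passed. Without any 1 of the other 5 samples they did not, with edgeR adjusted p from 0.265 to 0.469 for Fyn and from 0.439 to 0.647 for Frk.

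The CAP, Cbl and TC10 genes, a raft route for insulin's control of glucose transport, had 5 of 11 tested members below and 6 above 0, with a median of 0.029. None was called by edgeR or DESeq2, and none had an unadjusted p under 0.05 in edgeR. Crkl, an adaptor of this route, was at 0.23 ± 0.17 (edgeR adjusted p = 0.624) and Rhoq, the gene of TC10, at 0.21 ± 0.16 (edgeR adjusted p = 0.655). Rhoq was at 0.083 without knockdown replicate 1.

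Genes that make raft lipids held the 1 call. Of 24 tested sphingolipid and ganglioside genes, 18 were above and 6 below 0 (50.4% of all tested genes were above), with a median of 0.13. At an unadjusted p under 0.05, 6 of the 24 passed in edgeR, against 12.4% of all genes, and 7 had every knockdown sample above every control, against 8.96%. Cers6, a ceramide synthase with a preference for the C16 chain, measured 48.7, 42.7 and 53.5 CPM in controls and 81.7, 76.6 and 84.8 CPM after knockdown. It rose by 0.74 ± 0.15 on the log2 scale (edgeR adjusted p = 0.0842, DESeq2 adjusted p = 0.01). The call was lost in edgeR without any 1 of the controls, without knockdown replicate 2 or 3, with the replicate block, with library sizes alone and with chromosome medians removed (edgeR adjusted p from 0.112 to 0.311), always with a higher mean after knockdown. St3gal5, the synthase of the ganglioside GM3, measured 13.3, 13.4 and 13.1 CPM in controls and 20, 21.6 and 27.8 CPM after knockdown (0.81 ± 0.20, edgeR adjusted p = 0.136, DESeq2 adjusted p = 0.0989). It passed in edgeR without knockdown replicate 1 (adjusted p = 0.0576) and did not when any 1 of the other 5 samples was left out (edgeR adjusted p from 0.269 to 0.383). Without knockdown replicate 1, edgeR also called B4galt5 higher (1.04, adjusted p = 0.0979) and Ormdl3 lower (-0.67, adjusted p = 0.058). There, 5.94% of all genes were called. DESeq2 also called Smpd3, the neutral sphingomyelinase 2 gene, lower, with 20 counts over the controls against 5, below the edgeR filter.

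**Figure D5:**
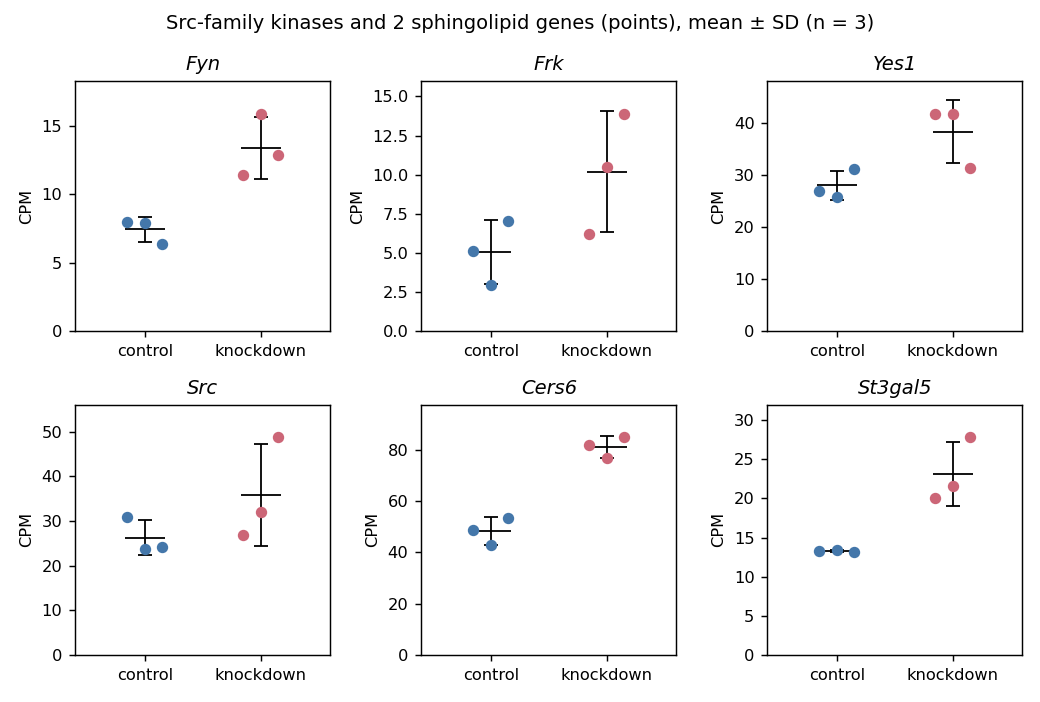
Levels in CPM (counts scaled to library size, linear axes from 0) of the 4 Src-family kinase genes tested and of Cers6 and St3gal5, with 1 point per sample, the group mean and ±1 SD (n = 3 per group). Cers6, St3gal5, Fyn and Yes1 are higher in all 3 knockdown samples, Yes1 by the margin of 31.1 to 31.3 CPM, and Frk and Src overlap.

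Proteins held in rafts by a GPI anchor had 10 of 15 tested genes above and 5 below 0, with a median of 0.10 and none called by edgeR. An unadjusted p under 0.05 was found for 5 of the 15, against 12.4% of all genes. All knockdown samples were above all controls for 4 and below for 1, against 8.96% and 9.55%. DESeq2 called 3 (3.20% of all genes), of which Gpc1, a cell-surface heparan sulfate proteoglycan, was at 56.1, 31.8 and 33.9 CPM in controls and 61.5, 84.9 and 88.5 CPM after knockdown (edgeR 0.94 ± 0.24 and adjusted p = 0.147, DESeq2 adjusted p = 0.0254). Bst2, an interferon-inducible tetherin, was at 3.69, 2.98 and 1.89 CPM in controls and 4.6, 6.08 and 23.6 CPM after knockdown, highest by far in knockdown replicate 3 (edgeR 2.02 ± 0.63 and adjusted p = 0.219, DESeq2 adjusted p = 0.053). Cd55, the complement decay-accelerating factor, had 19, 9 and 6 counts in controls and 0, 0 and 1 after knockdown. With all 6 samples it was below the edgeR filter (DESeq2 adjusted p = 0.00302). In edgeR, Gpc1 and Bst2 were called without knockdown replicate 1 (adjusted p = 0.0381 and 0.0435), as was Cd55, which was lower (-5.41, adjusted p = 0.0409). In that run 5.94% of all genes were called. Gpc1 and Bst2 were not called without any 1 of the other 5 samples (edgeR adjusted p from 0.132 to 0.432 and from 0.288 to 0.503), and Bst2 was at 0.91 without knockdown replicate 3. Without control replicate 3, edgeR called 1 gene of this list, neither Gpc1 nor Bst2. Gpc1 was also called in edgeR with no filter on low counts (adjusted p = 0.0846) and Bst2 with library sizes alone (adjusted p = 0.0749). Smpd3 and Cd55 are named because DESeq2 called them, a choice made after their values were seen. B4galt5 and Ormdl3 are named because edgeR called them without knockdown replicate 1, also after their values were seen.

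Cell type markers were read beside these genes, since caveolins rise as fibroblasts become fat cells. The summed level of 8 adipocyte markers was 20007 to 23283 CPM in controls and 11007 to 19262 CPM after knockdown, without overlap, and none of the 7 tested was called by edgeR. That separation came from Lpl, the lipoprotein lipase gene, which made up 55.9% to 62.3% of the control sums and was at 11958 to 14512 CPM in controls and 5350 to 10210 CPM after knockdown. Without Lpl the sums overlapped, at 7732 to 9430 CPM and 5658 to 9052 CPM. Cd36, the fatty acid transporter, was higher in all knockdown samples (613 to 788 CPM against 900 to 1299 CPM), and the other 5 tested markers, Adipoq, Fabp4, Plin1, Cidec and Pparg, overlapped. The 6 preadipocyte and fibroblast markers summed to 7831 to 10411 CPM and 5522 to 12761 CPM, with overlap. Pdgfra (204 to 258 CPM against 83.2 to 159 CPM) and Dlk1 (217 to 361 CPM against 67.7 to 192 CPM) were lower in all knockdown samples and not called (edgeR adjusted p = 0.155 and 0.388), and Pdgfrb, Col1a1, Col1a2 and Fn1 overlapped. Of all tested genes, 9.55% were lower and 8.96% higher in every knockdown sample. The part of the marker differences in the caveolar genes was not tested. Endothelial cells, which are rich in caveolae, had markers at 0.172 to 2.4 CPM in controls and 0.807 to 2.16 CPM after knockdown over 5 genes, with Kdr at 0 throughout. The 5 blood and macrophage markers read here summed to 1.2 to 2.48 CPM and 2.06 to 3.27 CPM, with Ptprc, Adgre1 and Cd3e at 0 in every sample, and of 4 muscle markers Myod1, Myog and Ckm were at 0 while Des gave 23.9 to 29.2 CPM and 19.4 to 33.4 CPM.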

How the data were processed

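The deposited table holds estimated counts per gene, made by the authors from stranded total RNA libraries, which were trimmed with Trim Galore 0.6.7, aligned to GRCm38 with STAR 2.7.10a and counted with Salmon 1.9.0. The annotation release is not given in the sources used here. Fractional values, at a tolerance of 1.0e-06, made up 3.97% to 7.78% of a sample and were rounded. Library totals ran from 3142695 to 11073098, and 3 counts were worth 0.22 to 1.49 CPM.

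Genes were filtered with filterByExpr, scaled by TMM and tested with edgeR 4.0.16 (R 4.3.3), scrambled control against RBMS1 knockdown, with Benjamini-Hochberg adjustment over 11440 genes. The newer quasi-likelihood estimates of edgeR were chosen after both sets of estimates had been computed, to follow an earlier processing of these data. DESeq2 1.42.0, limma 3.58.1 (voom), other scalings and filters, a replicate block and leaving out each sample were alternatives. CPM per kb used exon lengths of GENCODE on GRCm38. Intervals on counts cover counting error only. The fits were tested on simulated data.

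The 9 genes, the 7 lists and the markers were chosen with earlier results of these data known. From each list the called genes were named and, where fewer than 2 were called, the 2 with the smallest p, together with the tested genes within 2 Mb of Pag1, the 3 genes closest in pattern to Pag1 and to Cav1, and the cell type markers, of which 1 is not reported here.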

Additional observations from a re-analysis of the deposited data

How the results depend on the processing

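None of the 8 genes other than Pag1 was called under any alternative run, but the number of calls over all genes was unstable. It was 140 in the reported test, 430 by DESeq2, 268 with no filter on low counts, 71 with chromosome medians removed, 39 with the replicate block, and 12 to 696 when 1 sample was left out (12 without control replicate 2, 696 without knockdown replicate 1). Earlier quasi-likelihood estimates gave 122, and limma-voom 116. For the 7 lists together, 1 call became 7 by DESeq2, 3 with no filter, 2 with at least 1 CPM in 3 samples, 0 with chromosome medians removed or with the replicate block, and 0 to 11 when 1 sample was left out. The cause was not tested. Library sizes alone moved the median of all genes by 0.37 and turned Cav1 to 0.19, Ehd2 to 0.13 and Flot1 to 0.22 on the log2 scale, which relative to that shift were -0.19, -0.24 and -0.16, and it called 126 genes, 42 of them lower, against 104 of 140. Leaving out 1 sample gave -0.36 to 0.046 for Cav1 (above 0 without knockdown replicate 2) and -0.021 to 0.20 for Flot2 (below 0 without knockdown replicate 3), and removing chromosome medians gave -0.043 for Cavin2. Pag1 was at -3.92 with chromosome medians removed, where the first 50 Mb of chromosome 3 had a median of their own, and ranged from -5.62 to -4.13 when 1 sample was left out. Samples with the same replicate number did not deviate together (correlations of -0.14, 0.08 and -0.03), and no control correlated best with its own number. The labels do not say whether the numbers pair the samples. With 3 samples per group, these correlations cannot exclude that they do. Control replicate 2 limits the precision of the low genes, since its total was the smallest and 3 counts were worth 1.49 CPM there.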
